A study of Mus musculus with 6 samples.

Results

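Chemokines and their signalling receptors were examined in epidermal keratinocytes of the back, from K14ΔNLef1 and wild type mice. Members were all genes whose symbol starts with Ccl, Cxcl, Ccr, Cxcr, Xcl or Xcr and a digit, or with Cx3cl or Cx3cr. This left out the scavenging receptors, Ccrl2 and the chemokine genes Pf4 and Ppbp, whose symbols start otherwise. Members came to 46 of the 11281 genes measured, 30 ligands and 16 receptors. A further 12 protein-coding genes with such names were not analysed here, among them the ligand genes Ccl19, Ccl27a, Cxcl3 and Cxcl17.

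The study holds 3 K14ΔNLef1 and 3 wild type samples from female mice aged 9.5 weeks, all on the strain background C57BL6/CBA. K14ΔNLef1 mice carry the Wnt pathway transcription factor Lef1 without its N-terminal part, which binds beta-catenin, and the keratin 14 promoter, active in the basal layer, drives it. The cells are labelled as unfractionated keratinocytes, although the extraction protocol mentions sorting, without naming a gate. Each sample was read on 1 exon array, and the labels do not say whether a sample is 1 mouse or a pool, so p-values measure the spread between these samples.

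Chemokines are small secreted proteins that guide the movement of leukocytes, named CC, CXC, CX3C or XC after the spacing of their first cysteines. Their receptors are coupled to inhibitory G proteins and sit mostly on leukocytes, where ligand binding steers the cell up the gradient. In skin, keratinocytes make several of the ligands, some at rest and others after cytokines or injury, and the resident T cells and Langerhans cells of mouse epidermis carry receptors and make ligands of their own.

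A gene's value below is its log2 intensity on an array, averaged over probe sets, and a difference is K14ΔNLef1 minus wild type on that scale. Members were read by 1 to 10 probe sets, 11 of them by 1, and their values are set against the same gene on other arrays only. The array number limits the precision. Lef1 itself had 11.11, 11.13 and 11.24 on K14ΔNLef1 arrays and 5.81, 7.02 and 6.26 on wild type arrays, which fits the labels. Median intensity per array was 154.2 on K14ΔNLef1 replicate 1, against 190.0 to 203.2 on the other 5 arrays. Of 10 keratinocyte markers 9 were measured, and their summed level (log2 of the sum of linear values) was 14.60 to 15.05 on K14ΔNLef1 arrays and 15.10 to 15.20 on wild type arrays. Of these 9, 0 passed, 1 was higher and the rest were lower, with a median difference of -0.36. Without overlap 4 were lower, where 11.8% of all genes were, among them Krt15 (-0.36) and Trp63 (-0.34). The 1 that was not lower was Krt14, a keratin of the basal layer. It was level at 12.81, 13.04 and 13.06 on K14ΔNLef1 arrays and 12.94, 12.89 and 12.99 on wild type arrays.

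No chemokine or receptor gene passed the test across all genes. Of 46 members 0 rose and 0 fell (limma, Benjamini-Hochberg over 11281 genes, adjusted p at or under 0.05), where 0.328% of all genes rose and 0.833% fell, 1.16% together. The smallest adjusted p among members was 0.165, for Ccl5. At an unadjusted p under 0.05 there were 9 members, 5 higher and 4 lower, or 19.6% of them, against 11.8% of all genes. The groups did not overlap for 7 members, 15.2% of them, against 18.7% of all genes: 4 were higher, where 6.91% of all genes were, and 3 were lower, where 11.8% of all genes were. The share without overlap was thus not above that of all genes, and the share at an unadjusted p was.

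More members lay above zero than below it, by small amounts. Of the 46, 31 were higher in K14ΔNLef1, 18 of 30 ligands and 13 of 16 receptors, and the median difference was 0.17, against -0.05 for all genes, of which 42.8% were higher. Dim genes leaned upward in general. Among the 2820 dimmest genes 64.3% were higher, and 19 members were in that class, of which 14 were higher. Of the 27 members outside that class 17 were higher, where 35.7% of all such genes were. Setting the arrays to the same median moved the median of all genes to 0.05 and turned 5 members with near-zero differences upward, Ccr10, Ccl3, Ccl11, Cxcl14 and Ccl9, so that 36 of 46 were higher. Without K14ΔNLef1 replicate 1 the members' median was 0.08 and 28 were higher.

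The arrays limit what these differences exclude. The 95% interval of a member's difference reached 0.37 to 1.33 either side of it, with a median of 0.57. For 25 members the interval lay within -1 and 1, the bounds of a 2-fold change, and for the others a change of that size was not excluded at this number of arrays. Only 3 members differed by 1 or more, Cxcl1, Ccl5 and Ccr4, each of which was read by 1 probe set.

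**Figure D1:**
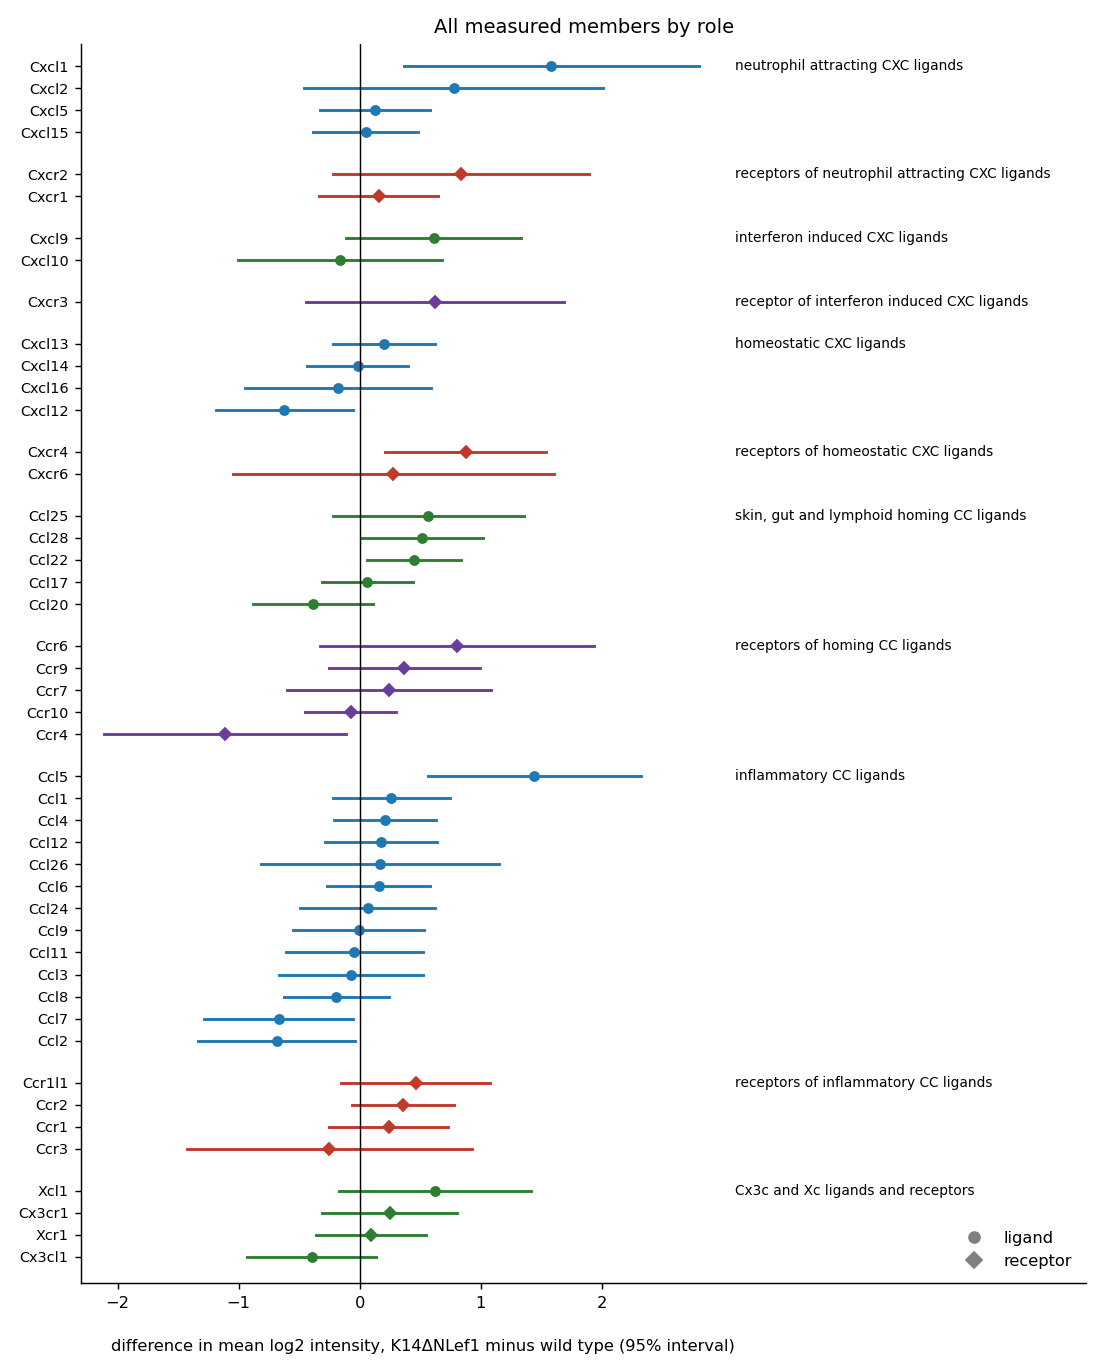
Difference in mean log2 intensity between K14ΔNLef1 and wild type for each of the 46 members, grouped by role, with the unadjusted 95% interval from limma (n = 3 arrays each). Ligands are circles and receptors diamonds. The points run from -1.11 for Ccr4 to 1.58 for Cxcl1, and most intervals cross zero.

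Among the CXC ligands that draw neutrophils, Cxcl1 had the largest difference of any member. Its values were 7.47, 7.74 and 9.61 on K14ΔNLef1 replicates 1, 2 and 3, against 6.23, 6.69 and 7.16 on wild type replicates 1, 2 and 3. Every K14ΔNLef1 array lay above every wild type array, and replicate 3 stood well above the other K14ΔNLef1 arrays. The difference was 1.58 (SE 0.53, adjusted p of 0.286), a mean 2.99-fold higher level, and 0.91 to 1.98 with 1 array left out, lowest without K14ΔNLef1 replicate 3.

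The region before Cxcl1 is shown because this member had the largest difference and its window holds 3 matches to the word bound by NF-kB, a factor that switches on many chemokine genes after cytokine signals. It spans chr5:90890995-90891244 (GRCm38.p6, plus strand, from RefSeq), the 250 bases 5′ of the annotated start, and capitals mark matches, on either strand, to GGGA, any 4 bases and then CC.
Cxcl1: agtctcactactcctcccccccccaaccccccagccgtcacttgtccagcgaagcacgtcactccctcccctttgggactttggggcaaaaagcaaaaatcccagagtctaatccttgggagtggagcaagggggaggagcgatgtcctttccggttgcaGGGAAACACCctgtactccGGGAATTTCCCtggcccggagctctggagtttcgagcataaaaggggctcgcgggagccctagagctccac

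The 3 matches lie at 90, 71 and 70 bases before the start, counted to the first base of each, and the last pair overlap. Such a match was found in 17.6% of the 32851 promoter windows of this length, and in 13 of the 35 members with a window in that table. Cxcl1 was the 1 ligand of this group of 4 measured whose arrays separated.

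Cxcl2, a close relative of Cxcl1 with the same receptor, had 7.49, 5.45 and 5.36 on K14ΔNLef1 replicates 1, 2 and 3, against 4.97, 5.76 and 5.24 on wild type arrays. A lone array, K14ΔNLef1 replicate 1, was high. The difference was 0.78 (SE 0.54, adjusted p of 0.643), and 0.08 without that array. Cxcl5, another Cxcr2 ligand, differed by 0.12 and Cxcl15, known from lung, by 0.05. Cxcl1 and Cxcl2 were highest on different K14ΔNLef1 arrays, and as similar copies read by 1 probe set each their values are uncertain.

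The receptor Cxcr2, the main neutrophil receptor for these ligands, had 6.37, 8.02 and 7.07 on K14ΔNLef1 arrays and 7.0, 5.63 and 6.31 on wild type arrays. The groups overlapped, with a difference of 0.84 (SE 0.46, adjusted p of 0.554) that was 0.40 without K14ΔNLef1 replicate 2 and 1.23 without replicate 1. All 4 of its probe sets were higher in K14ΔNLef1, by 0.29 to 1.27. Cxcr1, its neighbour in function, had 8.22, 7.87 and 7.69 on K14ΔNLef1 arrays and 7.50, 7.90 and 7.92 on wild type arrays, a difference of 0.15. Of 12 neutrophil markers 9 were measured, with none past the test. They averaged 0.43, 0.00 and 0.87 above the wild type mean on K14ΔNLef1 replicates 1, 2 and 3, against -0.10, 0.10 and -0.00 on wild type arrays, and their summed level was 9.53 to 10.61 on K14ΔNLef1 and 9.40 to 9.50 on wild type arrays. S100a8, which neutrophils and stressed keratinocytes both make, had 5.44, 5.06 and 9.14 on K14ΔNLef1 arrays and 4.49, 4.64 and 4.60 on wild type arrays. S100a9, its partner, had 6.29, 5.03 and 8.44 on K14ΔNLef1 arrays and 4.53, 5.94 and 5.22 on wild type arrays. The high mean on replicate 3 lay in this pair, and the other 7 markers averaged 0.27, -0.04 and 0.0021 on K14ΔNLef1 arrays. Among those markers Fpr1, Ltf and Camp were lowest of the K14ΔNLef1 arrays on replicate 3, while Csf3r, Fpr2 and Ngp were highest there. The part of neutrophils in the Cxcl1 difference was not tested.

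**Figure D2:**
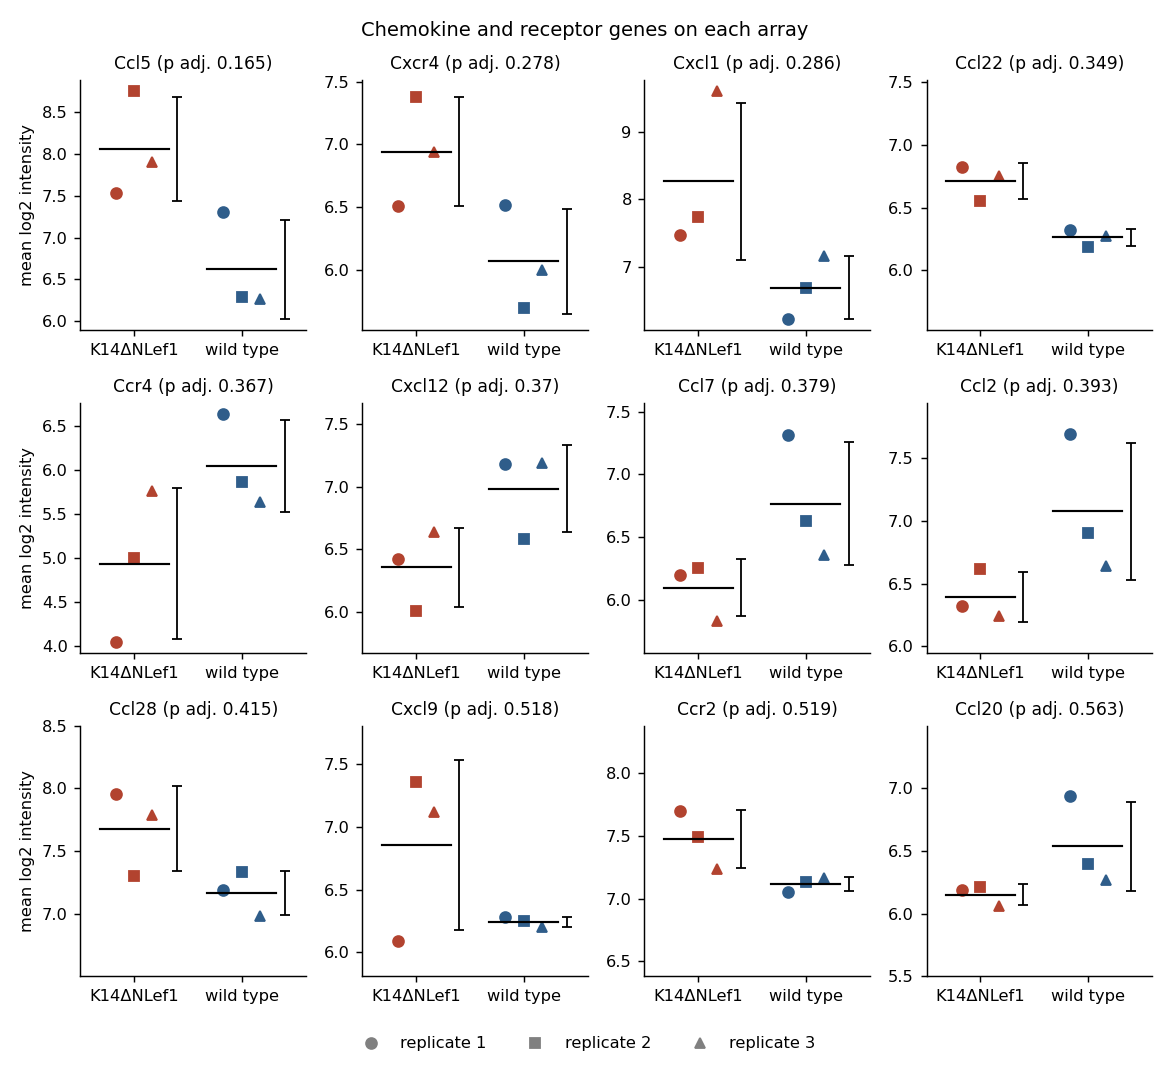
Mean log2 intensity on each array for the 12 members with an unadjusted p under 0.05, no overlap between the genotypes or a call with 1 array left out. Points are arrays with a shape for each replicate number, lines are means and bars 1 SD (n = 3 each). Ccl5, Cxcl1, Ccl22 and Ccr2 were higher without overlap, and Ccl7, Ccl2 and Ccl20 lower without overlap.

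Of the ligands induced by interferon, which attract activated T cells through Cxcr3, Cxcl9 was high on K14ΔNLef1 replicates 2 and 3 only. Its values were 6.09, 7.36 and 7.12 on K14ΔNLef1 replicates 1, 2 and 3, against 6.28, 6.25 and 6.20 on wild type arrays. The difference was 0.61 (SE 0.31, adjusted p of 0.518). Without K14ΔNLef1 replicate 1, which lay just below wild type, it was 0.995 and passed with a limma adjusted p of 0.0241, the 1 member that rose there, where 1.02% of all genes rose and 1.1% fell. Without K14ΔNLef1 replicate 2 the difference was 0.36. Of its 7 probe sets 6 were higher, from -0.14 to 1.70, and the brighter ones were level: over brighter probe sets alone the gene differed by -0.065.

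Cxcl10, the other measured interferon-induced ligand, did not follow. It had 6.41, 6.50 and 6.53 on K14ΔNLef1 arrays and 7.57, 6.02 and 6.35 on wild type arrays, with wild type replicate 1 highest. The difference was -0.17 (SE 0.37, adjusted p of 0.900), and 0.30 without wild type replicate 1. Their receptor Cxcr3 had 5.96, 6.29 and 4.73 on K14ΔNLef1 arrays and 5.58, 5.28 and 4.25 on wild type arrays, a difference of 0.62 (SE 0.46, adjusted p of 0.669), with overlap between the groups. With 1 array left out it ran from 0.23, without wild type replicate 3, to 1.09, without K14ΔNLef1 replicate 3.

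The region before Cxcl9 is shown because Cxcl9 was the member that passed with 1 array left out. It spans chr5:92328080-92328329 (GRCm38.p6, minus strand, from RefSeq), printed in the direction of transcription, and capitals mark a match to the same NF-kB word on the other strand, 130 bases before the start.
Cxcl9: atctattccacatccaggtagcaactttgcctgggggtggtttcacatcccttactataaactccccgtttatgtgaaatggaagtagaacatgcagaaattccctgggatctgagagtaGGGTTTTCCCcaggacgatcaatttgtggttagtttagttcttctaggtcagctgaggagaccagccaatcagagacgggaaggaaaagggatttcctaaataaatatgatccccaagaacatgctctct

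The window was also searched on both strands for GAAA, any pair of bases and GAAA, the core of the element bound by interferon-activated factors, which 2.98% of all windows and 2 of 35 members hold, and no match is in these letters of Cxcl9.

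In the homeostatic CXC group the ligand Cxcl12 was lower and its receptor Cxcr4 higher, neither past the test. Cxcl12, a stromal ligand that retains and positions leukocytes and stem cells, had 6.42, 6.01 and 6.64 on K14ΔNLef1 arrays and 7.18, 6.58 and 7.19 on wild type arrays. The lowest wild type array lay just under the highest K14ΔNLef1 array. The difference was -0.63 (SE 0.25, adjusted p of 0.370).

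The 8 probe sets of Cxcl12 did not move alike. Of these, 6 were lower, and probe set 4791317 differed by -1.78, with 7.01, 6.92 and 7.28 on K14ΔNLef1 arrays and 9.16, 8.41 and 8.98 on wild type arrays. That was the smallest p of any member probe set, with an adjusted p of 0.104 over 109751 probe sets, of which 0 of the 152 member probe sets passed. Another pair of its probe sets, 5218882 and 5284016, differed by 0.04 and 0.03. Their positions along the transcript were not analysed here.

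Cxcr4, the receptor of Cxcl12, present on most leukocytes, had 6.51, 7.38 and 6.94 on K14ΔNLef1 arrays and 6.52, 5.69 and 5.99 on wild type arrays. Wild type replicate 1 lay just above K14ΔNLef1 replicate 1, and the other arrays separated. The difference was 0.88 (SE 0.29, adjusted p of 0.278), with all 3 probe sets higher, by 0.30 to 1.197. Without K14ΔNLef1 replicate 1 it was 1.09 (adjusted p of 0.109).

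The regions before this ligand and receptor are shown because the pair differed in opposite directions and Lef1 is the altered gene. That of Cxcl12 is chr6:117168285-117168534 (plus strand) and that of Cxcr4 is chr1:128592300-128592549 (minus strand, in the direction of transcription), both GRCm38.p6 from RefSeq. Capitals mark matches on either strand to CTTTG followed by AA, AT, TA or TT, the words bound by Lef1 and Tcf factors.
Cxcl12: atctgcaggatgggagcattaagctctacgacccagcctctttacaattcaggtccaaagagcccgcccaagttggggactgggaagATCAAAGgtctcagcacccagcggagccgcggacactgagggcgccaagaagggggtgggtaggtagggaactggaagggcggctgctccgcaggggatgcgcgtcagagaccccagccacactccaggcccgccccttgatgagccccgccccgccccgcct
Cxcr4: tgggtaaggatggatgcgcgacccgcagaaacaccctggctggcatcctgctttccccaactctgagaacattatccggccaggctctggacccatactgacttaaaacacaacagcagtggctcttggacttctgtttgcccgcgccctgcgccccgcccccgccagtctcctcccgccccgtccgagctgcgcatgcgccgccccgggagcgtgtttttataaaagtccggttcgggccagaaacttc

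Cxcl12 holds 1 such word, ATCAAAG as printed, 163 bases before the start, and the Cxcr4 window holds none. Such a word is in 14.8% of all windows and in 9 of 35 members, so a match is a description of the letters.

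Of the other homeostatic members, Cxcl14, a ligand made by resting epithelium, was level, at 8.59, 8.63 and 8.64 on K14ΔNLef1 arrays and 8.55, 8.47 and 8.89 on wild type arrays. Its difference was -0.02, with an interval from -0.43 to 0.40. Cxcl13, which attracts B cells, had 5.73, 5.72 and 5.49 on K14ΔNLef1 arrays and 5.32, 5.67 and 5.35 on wild type arrays, a difference of 0.20. Cxcl16, a membrane-bound ligand, had 7.86, 8.59 and 9.27 on K14ΔNLef1 arrays and 8.81, 8.54 and 8.91 on wild type arrays, with K14ΔNLef1 replicate 1 below the wild type arrays, replicate 3 above them and replicate 2 among them. Cxcr6, the receptor of Cxcl16 on tissue T cells, also had replicate 1 below wild type, but replicates 2 and 3 both above it, at 6.14, 8.42 and 8.45 on K14ΔNLef1 arrays and 7.71, 6.98 and 7.48 on wild type arrays. Its difference of 0.28 (SE 0.58, adjusted p of 0.895) was 1.04 without K14ΔNLef1 replicate 1 (adjusted p of 0.0796), -0.10 without replicate 2 and -0.11 without replicate 3.

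Among the CC ligands that direct cells to skin, gut and lymphoid tissue, 4 of 5 were higher in K14ΔNLef1. Ccl22, a ligand of Ccr4 from dendritic cells and other leukocytes, had 6.83, 6.55 and 6.75 on K14ΔNLef1 arrays and 6.32, 6.19 and 6.28 on wild type arrays. The groups did not overlap and the spread within each was small. The difference was 0.45 (SE 0.17, adjusted p of 0.349), 0.39 to 0.53 with 1 array left out, with 5 of 6 probe sets higher. Ccl17, the other Ccr4 ligand, differed by 0.06, with an interval from -0.31 to 0.44.

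Ccl28, an epithelial ligand of Ccr10 read by 1 probe set, had 7.95, 7.30 and 7.78 on K14ΔNLef1 arrays and 7.19, 7.33 and 6.98 on wild type arrays. The lowest K14ΔNLef1 array lay just under the highest wild type array, with a difference of 0.51 (SE 0.22, adjusted p of 0.415). Leaving out 1 array gave 0.37 to 0.70. Ccl25, a gut and thymus ligand of Ccr9, differed by 0.57 (adjusted p of 0.590), and by 0.20 to 0.91 with 1 array left out, and its probe set 4647141 differed by 1.81. Ccl20, which keratinocytes make to draw Ccr6-bearing cells, was the ligand of this group that was lower, at 6.19, 6.21 and 6.06 on K14ΔNLef1 arrays and 6.94, 6.40 and 6.27 on wild type arrays. The groups did not overlap, with a difference of -0.38 (SE 0.22, adjusted p of 0.563). That difference went with 1 of the 3 probe sets, which differed by -1.48, while the others differed by 0.20 and 0.14. The 1 that fell was the dimmest, at 2.85, 2.91 and 2.51 on K14ΔNLef1 arrays and 4.81, 3.59 and 4.32 on wild type arrays. The brightest, which differed by 0.20, ran from 8.44 to 9.37 over all arrays. With an array left out the Ccl20 difference ran from -0.52 to -0.18.

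The receptors of these ligands went apart. Ccr4, a receptor of skin-homing T cells, had 4.05, 4.999 and 5.77 on K14ΔNLef1 arrays and 6.64, 5.87 and 5.64 on wild type arrays, from 1 probe set. K14ΔNLef1 replicate 3 lay above the lowest wild type array, and the difference of -1.11 (SE 0.44, adjusted p of 0.367) was -0.67 without replicate 1. Ccr6, the receptor of Ccl20, had 5.21, 6.44 and 6.94 on K14ΔNLef1 arrays and 6.24, 4.92 and 5.03 on wild type arrays, a difference of 0.80 (SE 0.49, adjusted p of 0.595) which was 1.30 without K14ΔNLef1 replicate 1 and 0.43 without replicate 3. Its 5 probe sets ran from -0.21 to 2.03. Ccr10, the skin-homing receptor of Ccl28, was level, with a difference of -0.08 and an interval from -0.45 to 0.30. The gut-homing receptor Ccr9 differed by 0.37 and the lymph node homing receptor Ccr7 by 0.24, and without K14ΔNLef1 replicate 1 by 0.17 and -0.17.

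Of the 13 inflammatory CC ligands, 7 were higher and 6 lower, with a median of 0.06. Ccl5, made by T cells and other leukocytes, had the smallest p of all members. Its values were 7.53, 8.75 and 7.90 on K14ΔNLef1 arrays and 7.31, 6.29 and 6.26 on wild type arrays. The groups did not overlap, with wild type replicate 1 close under K14ΔNLef1 replicate 1. The difference was 1.44 (SE 0.38, adjusted p of 0.165), a mean 2.72-fold higher level, and 1.10 to 1.79 with 1 array left out. With adjacent sample numbers as a block Ccl5 passed, with a limma adjusted p of 0.0363, where 30 of all 11281 genes rose and 61 fell.

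The neighbouring monocyte ligands Ccl2 and Ccl7, which act through Ccr2, were lower together. Ccl2 had 6.32, 6.62 and 6.24 on K14ΔNLef1 arrays and 7.69, 6.90 and 6.64 on wild type arrays. Ccl7 had 6.20, 6.25 and 5.83 on K14ΔNLef1 arrays and 7.31, 6.62 and 6.36 on wild type arrays. For both the groups did not overlap and wild type replicate 1 was highest. The differences were -0.69 (SE 0.28, adjusted p of 0.393) for Ccl2 and -0.67 (SE 0.27, adjusted p of 0.379) for Ccl7, and -0.38 and -0.40 without wild type replicate 1. Ccl2 was chosen for description after its values were seen.

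Their probe sets differed in size and sign. For Ccl7, probe set 5501633 differed by -2.53, with 5.65, 6.13 and 3.90 on K14ΔNLef1 arrays and 9.60, 6.85 and 6.83 on wild type arrays, and 2 of the other 3 were slightly higher. For Ccl2, probe set 5191772, its brightest, was level at 0.03 and the other 3 were lower, by 0.59 to 1.30 in size. On chromosome 11 Ccl2 and Ccl7 are followed by Ccl11, Ccl12, Ccl8 and Ccl1 in the GRCm38.p6 gene table, and those 4 differed by -0.04, 0.17, -0.19 and 0.26. Further along, Ccl5 is followed by Ccl9, Ccl6, Ccl3 and Ccl4, which differed by -0.01, 0.16, -0.07 and 0.21. On chromosome 11 the separated genes were thus the adjacent Ccl2 and Ccl7 and, before its run, Ccl5, while the genes listed after them overlapped. On chromosome 5 the separated gene Cxcl1 stood between Cxcl15 and Cxcl2, and on chromosome 9 the separated gene Ccr2 followed Ccr3. The part of position in these differences was not tested. The eosinophil ligands Ccl24 and Ccl26 differed by 0.06 and 0.17, and Ccl26, read by 1 probe set, was high on K14ΔNLef1 replicate 1 alone.

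Receptors of inflammatory ligands showed little. Ccr2, the monocyte receptor of Ccl2 and Ccl7, had 7.70, 7.49 and 7.24 on K14ΔNLef1 arrays and 7.06, 7.13 and 7.17 on wild type arrays. The groups did not overlap, with a difference of 0.36 (SE 0.18, adjusted p of 0.519). Of its 2 probe sets, 4908801 differed by 0.68 and the brighter, 5201182, was level at 0.03. Ccr1l1, a gene close in sequence to the Ccl5 receptor Ccr1, had 6.94, 6.16 and 6.58 on K14ΔNLef1 arrays and 5.79, 5.995 and 6.51 on wild type arrays, a difference of 0.46 (SE 0.27, adjusted p of 0.577). Leaving out 1 array gave 0.27 to 0.67. Ccr1 itself differed by 0.24. Ccr3, the eosinophil receptor, ran from 3.80 to 6.18 on K14ΔNLef1 arrays, against 5.07 to 5.27 on wild type arrays, and its difference of -0.25 was smaller than the spread of the K14ΔNLef1 arrays. These receptor genes have close copies, so a shared signal cannot be told apart.

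The remaining families have 1 ligand and 1 receptor each. Xcl1, made by activated T and natural killer cells, had 8.23, 9.67 and 8.58 on K14ΔNLef1 arrays and 8.17, 8.35 and 8.10 on wild type arrays. K14ΔNLef1 replicate 2 was far above the rest, with a difference of 0.62 (SE 0.35, adjusted p of 0.556) and 0.20 without that array. Its 4 probe sets were all higher, by 0.38 to 0.75, and its receptor Xcr1, of cross-presenting dendritic cells, differed by 0.09. Cx3cl1, a ligand tethered to epithelium and endothelium, had 6.74, 6.80 and 7.17 on K14ΔNLef1 arrays and 6.91, 7.59 and 7.41 on wild type arrays, a difference of -0.40 (SE 0.23, adjusted p of 0.579). Leaving out 1 array gave -0.59 to -0.25. Of its 10 probe sets 5 were higher, and probe set 5536611 differed by -1.59. Its receptor Cx3cr1, of macrophages and related cells, differed by 0.25.

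**Figure D3:**
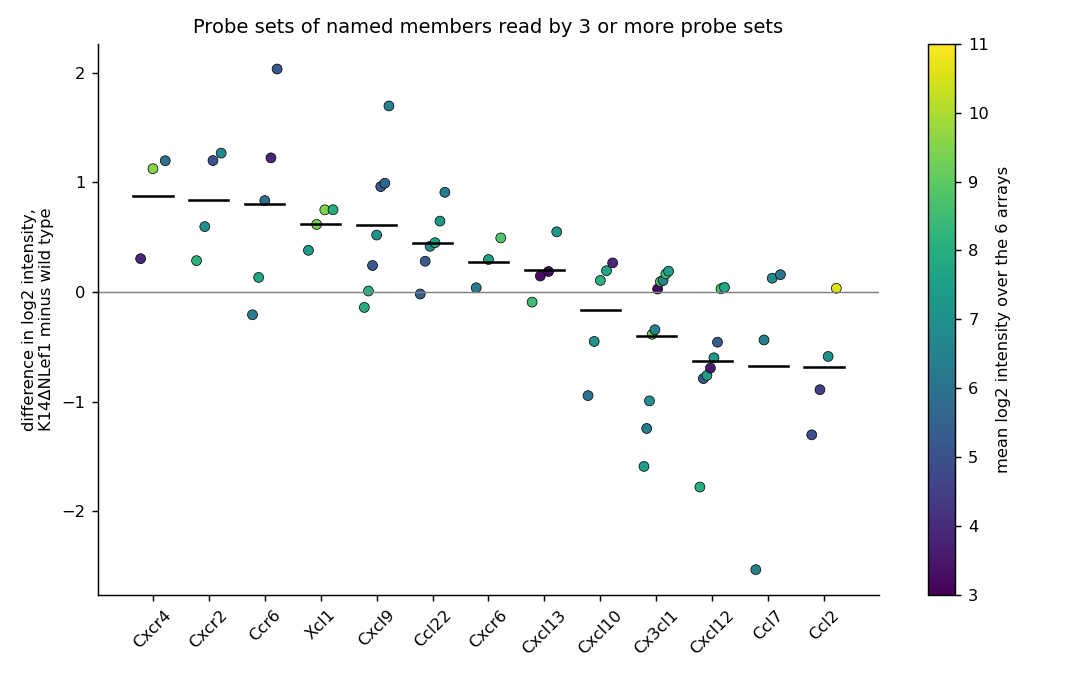
Difference of each probe set for the named members read by 3 or more probe sets, coloured by mean log2 intensity over the 6 arrays, with the gene's difference as a line. Probe sets of Cxcr4, Cxcr2, Xcl1 and Cxcr6 were all above zero, and those of Cxcl12, Ccl7, Ccl2 and Cx3cl1 were spread from about zero downward.

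K14ΔNLef1 replicate 1 differed from the other K14ΔNLef1 arrays in T cell and Langerhans cell markers and in some members. Of 16 T cell markers 12 were measured, 0 of which passed with all arrays, and 9 were higher, with a median difference of 0.66. Without K14ΔNLef1 replicate 1, Gzmc (2.34) and Cd2 (1.22) rose, where 1.02% of all genes rose. The 12 markers averaged -0.07, 1.18 and 0.62 above the wild type mean on K14ΔNLef1 replicates 1, 2 and 3, against 0.36, -0.23 and -0.13 on wild type arrays. Their summed level was 11.55 to 13.09 on K14ΔNLef1 arrays and 11.41 to 12.08 on wild type arrays. Langerhans cell and antigen presentation markers, 13 of 14 measured, had 0 past the test with all arrays and 12 higher, with a median difference of 0.64. They averaged 0.01, 1.26 and 0.67 on K14ΔNLef1 arrays and 0.40, -0.35 and -0.04 on wild type arrays. Their summed level was 11.77 to 13.31 on K14ΔNLef1 and 11.87 to 12.38 on wild type arrays. These marker means were lowest on replicate 1 within K14ΔNLef1, as was the mean of all genes, at -0.25, -0.04 and 0.05 on K14ΔNLef1 arrays. Of the 46 members, 18 were lowest on that array within K14ΔNLef1 and 23 were highest there, so the members had no common direction.

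Of the members lowest there, chosen after their values were seen, Cxcr6 lay at -1.25, 1.02 and 1.06 against the wild type mean on K14ΔNLef1 arrays and at 0.32, -0.41 and 0.09 on wild type arrays. Ccr6 lay at -0.18, 1.05 and 1.54 on K14ΔNLef1 arrays and at 0.84, -0.48 and -0.37 on wild type arrays. Its probe sets 5424585 and 5190371 swung most, the former at 2.75, 7.17 and 8.63 on K14ΔNLef1 arrays and 7.03, 3.42 and 1.99 on wild type arrays. The brightest Ccr6 probe set, 5424580, was instead highest on K14ΔNLef1 replicate 1, at 8.16, 7.66 and 7.57 on K14ΔNLef1 arrays and 7.67, 7.52 and 7.80 on wild type arrays. Xcl1 lay at 0.03, 1.47 and 0.38 on K14ΔNLef1 arrays and at -0.04, 0.15 and -0.11 on wild type arrays. The order of these genes did not match the T cell markers throughout. Cxcr6 and Ccr6 were highest on K14ΔNLef1 replicate 3, and Xcl1 was highest among wild type arrays on replicate 2. Cxcr4 and Cxcr2, also lowest on replicate 1 within K14ΔNLef1, did have the markers' order over all arrays. Cxcr4 lay at 0.44, 1.31 and 0.87 on K14ΔNLef1 arrays and at 0.45, -0.38 and -0.07 on wild type arrays. Cxcr2 lay at 0.05, 1.70 and 0.75 on K14ΔNLef1 arrays and at 0.69, -0.68 and -0.01 on wild type arrays. Ccl5 had the markers' order within K14ΔNLef1, at 0.91, 2.13 and 1.28, and lay at 0.69, -0.33 and -0.36 on wild type arrays. In bulk samples more cells of a type and more RNA per cell cannot be told apart, and the part of these cells in the differences was not tested.

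Macrophage and monocyte markers, 10 of 12 measured, averaged 0.23, 0.28 and -0.02 on K14ΔNLef1 arrays and 0.05, -0.03 and -0.02 on wild type arrays, with 0 past the test. Their summed level was 9.72 to 10.08 on K14ΔNLef1 arrays and 9.70 to 9.79 on wild type arrays. Mast cell and eosinophil markers, 7 of 11 measured, had a median difference of 0.09, and B cell markers, 6 of 7 measured, of 0.14. On K14ΔNLef1 replicates 1, 2 and 3 the former averaged 0.17, 0.07 and 0.01. The B cell markers averaged 0.29, -0.13 and 0.10 there, so both means were highest on replicate 1. Fibroblast, endothelial and melanocyte markers had medians of 0.16, 0.15 and 0.24. None of these lists had a member that passed.

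**Figure D4:**
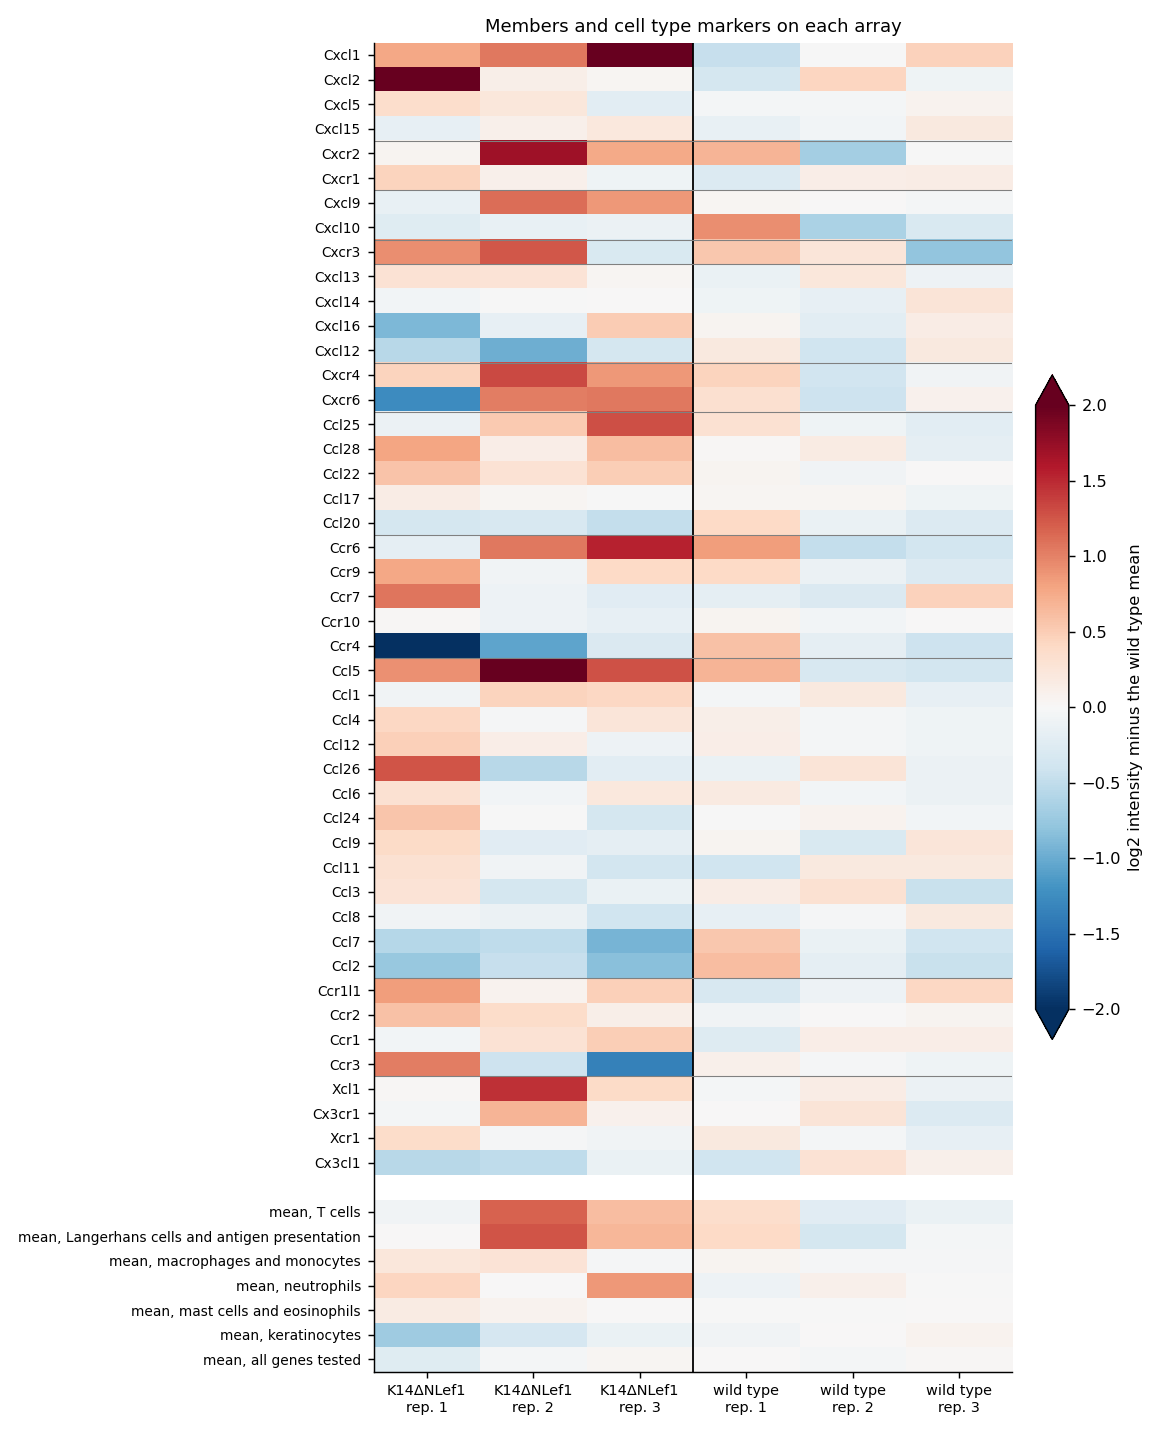
Log2 intensity minus the wild type mean on each array for the 46 members in order of role, with the mean of 6 cell type marker lists and of all genes tested below. Colours stop at 2 in either direction. Cxcr6, Ccr6, Xcl1 and Cxcl9 are among the 18 members lowest on replicate 1 within K14ΔNLef1, and 23 other members are highest there.

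The genes around the chemokine system were read in 3 lists. In signal transduction below the receptors, 27 of 36 genes were measured, and 1 rose and 0 fell, with 16 higher and a median of 0.37. Without overlap 9 were higher and 2 lower, where 6.91% and 11.8% of all genes were. The gene that rose was Gng11, a G protein gamma subunit read by 1 probe set, at 6.71, 7.40 and 7.39 on K14ΔNLef1 arrays and 5.01, 5.04 and 5.03 on wild type arrays, a difference of 2.14 (adjusted p of 0.00595). The groups were far apart, but Gng11 was put on the list with its call known. Without K14ΔNLef1 replicate 1, Gng2, Rgs2, Vav1 and Coro1a of that list rose as well, where 1.02% of all genes rose.

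Of 30 genes that induce, mediate or restrain chemokine expression 24 were measured and 0 passed, with 8 higher and a median of -0.23. The interleukin 1 receptor gene Il1r1 was nearest, at 7.72, 8.73 and 8.30 on K14ΔNLef1 arrays and 9.68, 9.55 and 9.45 on wild type arrays, a difference of -1.31 (adjusted p of 0.0666). The interferon gamma receptor gene Ifngr1 differed by -1.24 (adjusted p of 0.145). In both the groups did not overlap. Within this list 1 gene was higher and 7 of 24 lower without overlap, where 6.91% and 11.8% of all genes were. Those 7 include Nfkbia (-0.71) and Tnfaip3 (-1.07), which restrain NF-kB, so they are not all inducers. The genes of the list averaged -0.51, -0.20 and -0.11 against the wild type mean on K14ΔNLef1 arrays, and 0.08, -0.01 and -0.06 on wild type arrays.

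The last list, atypical receptors and chemokine handling, held 21 genes, of which 16 were measured and 0 passed, with a median of -0.05. It includes the chemokine genes Pf4 and Ppbp, which are not members and differed by 0.11 and 0.08. The atypical receptor gene Ccrl2 differed by -0.53 (adjusted p of 0.295) and the protease gene Mmp9, which cuts several chemokines, by 0.52 (adjusted p of 0.305). The scavenging receptors, which remove chemokines and are not members, were lower: Ackr2 had 7.17, 6.28 and 6.19 on K14ΔNLef1 arrays and 8.96, 9.37 and 8.83 on wild type arrays (difference of -2.50, adjusted p of 0.00983), and Ackr3, which takes up Cxcl12, had 7.13, 6.99 and 7.40 on K14ΔNLef1 arrays and 8.35, 8.19 and 8.16 on wild type arrays (difference of -1.06, adjusted p of 0.0379).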

How the data were processed

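The authors deposited 1 linear intensity per probe set and array for 6 exon arrays. RMA, the mm9 build and Affymetrix Power Tools are listed, without versions, per the submitters' processing notes. The deposited intensity was taken to log2. Of 114330 probe sets, 109751 had 1 gene symbol in the platform annotation and were used, 834 had several and 3745 had none listed. Old symbols were updated for 1226 names through the GRCm38.p6 gene table, Il8ra and Il8rb to Cxcr1 and Cxcr2 among them. A gene's value is the mean over its probe sets. All 11281 genes were fitted with limma 3.58.1 in R 4.3.3 (lmFit, eBayes, two-sided, Benjamini-Hochberg, threshold 0.05), with no filter on low values and no block. Probe sets were fitted likewise, and the gene fit was tested on simulated data. No background or detection value was used here, so whether a dim gene was detected is not known. Members with values on every array were those that passed with all arrays or with 1 left out, the 2 with the smallest p in each role and partners of a member that passed. Other members are named by their differences, and Ccl2, Ccl20, Cxcl14, Cxcl16, Krt14, S100a8 and S100a9 are given per array after their values were seen. From the 3 lists around the chemokine system, genes that passed or the 2 with the smallest p are named. Pf4, Ppbp, Nfkbia and Tnfaip3 are named for what they encode. Cell type markers were not named by that rule but after their values were seen. The members, lists and tests were chosen with earlier results of these data known. Samples were fitted without pairs, since the labels name none. Sample numbers lie side by side across the genotypes, at 506 and 507, 482 and 483, and 478 and 479. Deviations of arrays with the same replicate number correlated at -0.16, -0.17 and 0.04 over genes, and adjacent sample numbers gave 0.20, -0.07 and -0.01. With 3 arrays per group these correlations cannot show whether samples were paired. Figures used Python 3.11.15, pandas 2.3.3 and matplotlib 3.10.9.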

Additional observations from a re-analysis of the deposited data

How the results depend on the processing

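The result of 0 members that rose and 0 that fell held with the median of probe sets, brighter probe sets (25 members), genes with at least 4 probe sets (17 members), dim genes left out (27 members), quantile normalization, arrays set to the same median, robust eBayes with a trend, an adjusted p of 0.1 and the array number as a covariate. It also held with the replicate block, where 0 rose and 0 fell. It did not hold with adjacent sample numbers as a block, where 1 rose (Ccl5), and 30 of all 11281 genes rose and 61 fell. Nor did it hold with array weights, where 6 rose (Ccl5, Cxcl9, Cxcr2, Cxcr4, Cxcr6 and Xcl1) and 2 fell (Ccr4 and Cxcl12). Of all 11281 genes 598 rose and 699 fell with array weights. Those weights were 5.18 for K14ΔNLef1 replicate 2 and 0.15 for replicate 1, so that fit leans on 1 array. With 1 array left out, 0 to 1 members rose and 0 fell, the 1 being Cxcl9 without K14ΔNLef1 replicate 1. The members' median difference was 0.08 to 0.24 in those fits.

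Genes of the other lists that rose numbered 1 (Gng11) with all arrays and 6 with the arrays at the same median, where 1 fell, and with 1 array left out 1 to 7 rose and 0 to 1 fell. The 7 and 1 came without K14ΔNLef1 replicate 1, and the 1 that fell was Il1r1, which fell without replicate 2 also. Over brighter probe sets the direction turned for Cxcl13 (-0.092), Cxcl9 (-0.065), Cxcl10 (0.15) and Ccl2 (0.035). Among others the differences of Ccr2 (0.03), Cx3cl1 (-0.04) and Ccr6 (0.13) shrank there without turning. The cause was not tested. With 1 array left out in turn, 13 of 46 members changed direction at least once, Ccr7 among them. In those fits Cxcl10 differed by -0.48 to 0.30, above zero without wild type replicate 1. Cxcr6 differed by -0.11 to 1.04, below zero without K14ΔNLef1 replicate 2 (-0.098) or 3 (-0.11).

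Over all genes 37 rose and 94 fell, against 103 and 133 at the same median, 89 and 112 after quantile normalization, 598 and 699 with array weights, 26 and 49 with the replicate block, 30 and 61 with adjacent sample numbers, 28 and 50 with the array number and 71 and 165 at an adjusted p of 0.1. Without K14ΔNLef1 replicate 1 there were 115 and 124, and in the other 5 such fits 8 to 22 rose and 18 to 55 fell.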
